A study of Arabidopsis thaliana with 12 samples.

Results

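The genes described here build or modify the polysaccharides of the plant cell wall, and 23 of them belong to the TRICHOME BIREFRINGENCE-LIKE (TBL) family. They were chosen by symbol from the genes measured on a root array, as the names that begin with any of 15 wall gene stems (TBL, GAUT, GATL, GUT, GUX, IRX, CSL, CESA, PME, COBL, FLA, AGP, RWA, XXT or FUT), with or without a leading AT. This gave 41 of 16550 genes: 23 TBL, 9 CSL, 5 PME, 2 GUT and 2 IRX genes. The other 10 stems matched no symbol among the genes analysed here. Only 1804 of the 16550 genes had a symbol other than a locus code. A wall gene listed by its locus code was therefore not picked, even where it was analysed. The shares of all genes given below cover both kinds. One gene, PMEAMT, was caught by its letters alone, since it encodes a methyltransferase of phospholipid synthesis and no wall enzyme. It is counted among the 41 and described last.

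Plant cell walls are made of cellulose microfibrils held in a matrix of xylan, mannan, xyloglucan and pectin. Matrix backbones are made in the Golgi by glycan synthases such as the CSLA proteins (mannan), the CSLC proteins (xyloglucan) and the IRX10-type xylosyltransferases (xylan). TBL proteins are Golgi enzymes, several of which move acetyl groups onto a particular one of these polymers. Acetyl groups alter how a polymer folds, dissolves and binds to cellulose. Pectin is delivered to the wall as a methyl ester, and pectin methylesterases (PME) later remove the methyl groups.

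All plants were wild-type Arabidopsis thaliana of the accession Col-0, raised in hydroponic culture for 32 days and then treated for 7 days, so that roots came from plants 39 days old. Control roots had no treatment, arsenic roots had 250 µM arsenate (Na2HAsO4), hypoxia roots stood in hypoxic medium, and combination roots had arsenate in hypoxic medium. Each of the 4 groups had 3 arrays, which the submitters call independent biological replicates. The oxygen content of the medium and the number of plants per array were not given in the sources used here.

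Values are log2 signals that the authors normalised with RMA, and a change is a difference of group means on that scale with its standard error (SE). A gene is said to have risen or fallen where limma's adjusted p (Benjamini-Hochberg over all 16550 genes) was under 0.05. Array medians lay between 4.72 and 4.99. Arrays of 1 group correlated at 0.972 to 0.991 and arrays of different groups at 0.924 to 0.982, so the ranges overlapped. Array weights estimated by limma ran from 0.524 (combination 1) to 2.401 (arsenic 3). Signals of different probe sets are not comparable, so levels are compared between groups for a gene and not between genes. In whole roots, fewer cells of a type and less RNA per cell cannot be told apart, and transcripts of close paralogs can bind each other's probes.

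Many wall genes fell in treated roots, and few rose. In arsenic roots 11 of the 41 fell (26.8%) and 1 rose, where 9.58% of all genes fell and 8.34% rose. In hypoxia roots 18 fell (43.9%) and 1 rose, against 13.7% and 10.8% of all genes. In combination roots 22 fell (53.7%) and 1 rose, against 14.6% and 13.0%. The median change of the 41 genes was -0.28, -0.47 and -0.57 in these comparisons, and that of all genes was -0.01, 0.07 and 0.09. These comparisons share the control arrays, so they are not independent of each other.

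Among the 23 TBL genes no member rose against control, except TBL20 and TBL26 in hypoxia roots when arrays were centred on their medians and TBL30 in arsenic roots under array weights or without arsenic 1 (given with these genes). In arsenic roots 7 fell, in hypoxia roots 9 and in combination roots 12, with median changes of -0.27, -0.44 and -0.48. Signal level bears on such counts, since fewer falls were called over all genes at dim signals. Of the 14 TBL genes with a mean above 4.87, the mean of the array medians, 6, 8 and 10 fell in arsenic, hypoxia and combination roots, and of the 9 dimmer ones 1, 1 and 2. Among all genes above that level 12.9%, 18.8% and 19.4% fell, and among all genes below it 6.03%, 8.38% and 9.62%.

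Centring affects the counts under hypoxia. Arrays from hypoxia roots had medians 0.11 below the mean of all arrays and control arrays 0.08 above it. When every array was centred on its own median, the median change of all genes in hypoxia roots moved from 0.07 to 0.25, and the numbers of all genes that rose and fell went from 1791 and 2269 to 3654 and 1665. In combination roots they went from 2158 and 2420 to 3108 and 2014. Under that centring 15 wall genes fell and 3 rose in hypoxia roots, and 19 fell and 1 rose in combination roots, while the counts in arsenic roots stayed at 11 and 1.

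**Figure D1:**
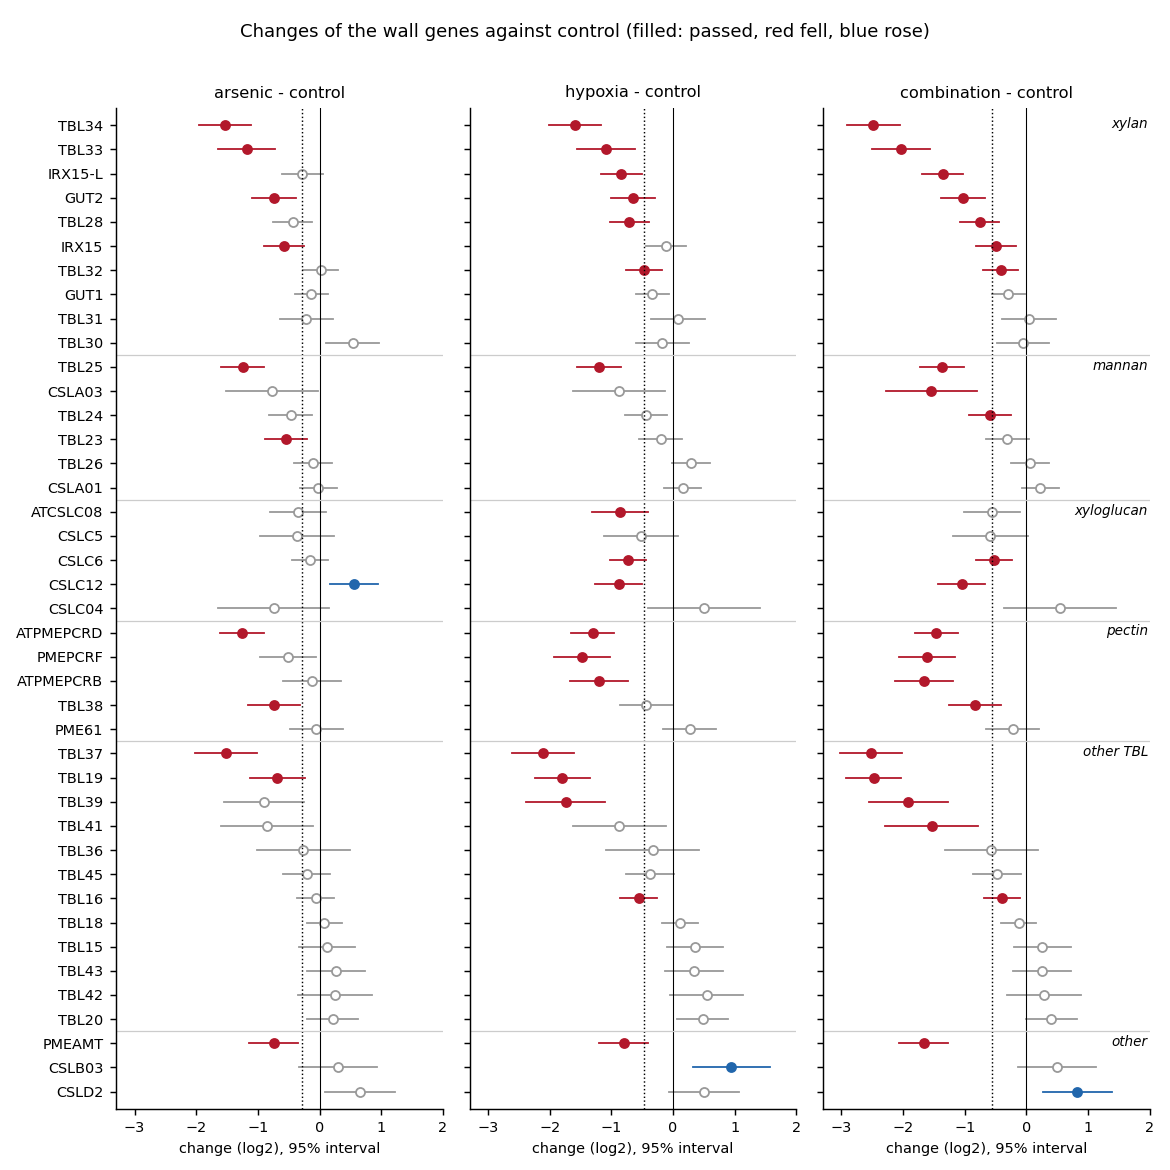
Change (log2) of each of the 41 wall genes in arsenic, hypoxia and combination roots against control roots, 1 panel per comparison. Points are differences of group means over 3 arrays each, bars are 95% intervals, filled points passed the adjusted test, and the dotted line is the median of the 41 genes; most filled points lie left of 0, with 11, 18 and 22 falls and 1 rise in each panel.

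Xylan is the main hemicellulose of the walls of xylem vessels and fibres. Over all genes 9.58%, 13.7% and 14.6% fell in arsenic, hypoxia and combination roots. Of the 10 measured genes of xylan 4, 6 and 7 fell in these groups, and none rose. They comprised 6 TBL genes of xylan acetylation (TBL28, TBL30, TBL31, TBL32, TBL33 and TBL34), GUT2 and GUT1, which are also called IRX10 and IRX10-like and lengthen the xylan backbone, and with IRX15 and IRX15-L, a pair of related proteins needed for normal xylan.

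TBL34 (AT2G38320) had signals of 7.24, 7.06 and 7.28 in control roots, 5.19, 5.90 and 5.89 in arsenic roots, 5.55, 5.59 and 5.68 in hypoxia roots, and 4.71, 4.47 and 4.96 in combination roots. Every treated array was below every control array, and the combination arrays were below those of either single treatment. The changes against control were -1.53 in arsenic roots (adjusted p = 0.000199), -1.58 in hypoxia roots (adjusted p = 0.000102) and -2.48 in combination roots (adjusted p = 2.03e-06), each with an SE of 0.20. The last is a signal 5.58-fold lower.

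TBL33 (AT2G40320) was also lowest under the combination. Its signals were 6.38, 6.62 and 6.79 in control roots, 4.92, 5.79 and 5.54 in arsenic roots, 5.28, 5.61 and 5.64 in hypoxia roots, and 4.70, 4.64 and 4.37 in combination roots. Here too the 3 combination arrays were the lowest, and the arsenic and hypoxia arrays overlapped each other. The changes were -1.18 (adjusted p = 0.00215), -1.09 (adjusted p = 0.00277) and -2.03 (adjusted p = 1.93e-05), each with an SE of 0.21.

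TBL28 and TBL32 moved less and passed under hypoxia and the combination. TBL28 (AT2G40150) read 7.00, 7.13 and 7.39 in control, 6.75, 6.81 and 6.65 in arsenic, 6.50, 6.29 and 6.61 in hypoxia, and 6.39, 6.34 and 6.51 in combination roots. No treated array reached a control array, and arsenic arrays were the closest to control. The changes were -0.43 in arsenic roots (adjusted p = 0.0557), -0.71 in hypoxia roots (adjusted p = 0.00361) and -0.76 in combination roots (adjusted p = 0.00174), each with an SE of 0.14. The arsenic change passed in 4 of 20 alternatives (lowest adjusted p = 0.0110).

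TBL32 (AT3G11030) read 8.26, 8.38 and 8.30 in control, 8.44, 8.38 and 8.17 in arsenic, 7.83, 7.76 and 7.93 in hypoxia, and 7.76, 7.93 and 7.98 in combination roots. The groups with hypoxic medium were separate from those without it, and arsenic arrays overlapped control arrays. The change was 0.02 in arsenic roots (adjusted p = 0.943), -0.47 in hypoxia roots (adjusted p = 0.0201) and -0.42 in combination roots (adjusted p = 0.0307), each with an SE of 0.13. With arrays centred on their medians the hypoxia change was -0.29 (adjusted p = 0.125) and the combination change -0.31 (adjusted p = 0.112), so neither passed. Leaving out control 2, control 3 or hypoxia 2 also lost the hypoxia call (adjusted p = 0.0757, 0.0512 and 0.0570), and 5 single arrays lost the combination call (adjusted p = 0.0577 to 0.103), namely any control array, combination 1 or combination 2.

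TBL30 (AT2G40160), the next coding gene after TBL28 in the RefSeq gene table with 0 coding genes between them, did not fall with it. Its signals were 5.57, 5.26 and 5.51 in control, 5.66, 6.30 and 5.98 in arsenic, 5.02, 5.17 and 5.62 in hypoxia, and 5.49, 5.46 and 5.21 in combination roots. The 3 arsenic arrays were the highest of all 12, yet the change of 0.53 (SE 0.20) did not pass (adjusted p = 0.0827). It passed under array weights (0.61, adjusted p = 0.0107) and without arsenic 1 (0.69, adjusted p = 0.0468). TBL31 stayed dim, between 3.34 and 4.06 over the 12 arrays, and passed in no comparison.

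The backbone gene GUT2 (AT1G27440) read 8.52, 9.04 and 8.93 in control, 7.85, 8.17 and 8.27 in arsenic, 8.06, 8.19 and 8.28 in hypoxia, and 7.75, 7.85 and 7.82 in combination roots. Control arrays were above all others, and the single treatments overlapped. The fall was largest under the combination, at -1.02 (SE 0.16, adjusted p = 0.000501), and the hypoxia change of -0.65 (adjusted p = 0.0120) narrowly failed with arrays centred on their medians (-0.47, adjusted p = 0.0501) and without control 2 (-0.55, adjusted p = 0.0606). Its close relative GUT1 changed by -0.14, -0.34 and -0.30 in arsenic, hypoxia and combination roots and did not pass (adjusted p = 0.518, 0.0638 and 0.0938).

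IRX15-L (AT5G67210) read 7.83, 8.07 and 7.99 in control, 7.78, 7.54 and 7.74 in arsenic, 7.16, 6.87 and 7.35 in hypoxia, and 6.69, 6.46 and 6.68 in combination roots. The order of the groups was strict, with no overlap between neighbours. The arsenic change of -0.28 did not pass (adjusted p = 0.252), whereas the hypoxia change of -0.84 (adjusted p = 0.00174) and the combination change of -1.35 (adjusted p = 3.62e-05) did, each with an SE of 0.15.

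IRX15 (AT3G50220) was dim, at 3.53, 3.70 and 3.50 in control, 2.99, 3.103 and 2.89 in arsenic, 3.40, 3.74 and 3.27 in hypoxia, and 3.19, 3.05 and 3.00 in combination roots. Arsenic and combination arrays were below control arrays, and hypoxia arrays overlapped them. IRX15 fell in arsenic roots (-0.58, SE 0.15, adjusted p = 0.0172) and in combination roots (-0.49, adjusted p = 0.0258) but not in hypoxia roots (-0.11, adjusted p = 0.628). The arsenic call was lost without control 2 (adjusted p = 0.0759) or arsenic 3 (adjusted p = 0.0736). The combination call was lost with centred arrays (adjusted p = 0.0761) and without control 1, combination 2 or combination 3 (adjusted p = 0.0530 to 0.0778) or control 2 (-0.43).

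**Figure D2:**
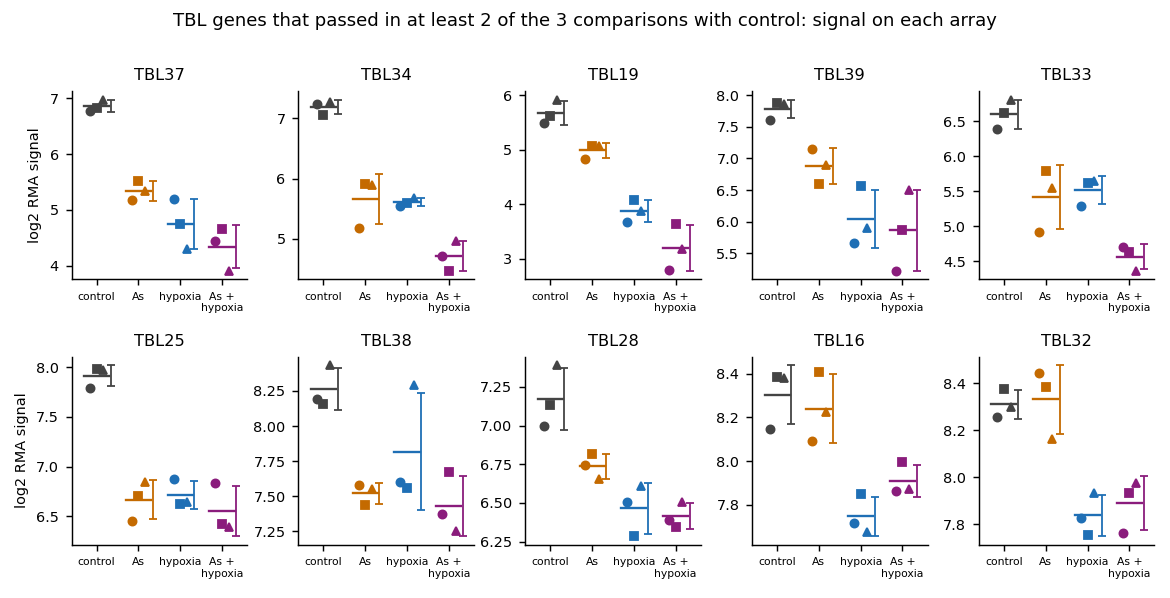
Log2 signal of the TBL genes that passed in at least 2 comparisons with control, 1 panel per gene, by group. Markers are single arrays (circle, square and triangle for replicates 1, 2 and 3) and bars are the mean and SD of 3 arrays; the combination arrays of TBL34 and TBL33 lie below those of both single treatments, whereas the treated groups of TBL25 overlap.

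Mannans are short hemicelluloses whose acetylation depends on TBL23 to TBL26 and whose backbone is made by CSLA proteins. Over all genes 9.58%, 13.7% and 14.6% fell in arsenic, hypoxia and combination roots. Of 6 measured mannan genes 2, 1 and 3 fell in these groups and none rose, so the hypoxia count was near the share of all genes. The clearest was TBL25 (AT1G01430), with signals of 7.79, 7.98 and 7.97 in control, 6.45, 6.70 and 6.85 in arsenic, 6.87, 6.62 and 6.64 in hypoxia, and 6.84, 6.42 and 6.39 in combination roots. All treated arrays were below control arrays and overlapped each other. Changes were -1.25 (adjusted p = 0.000230), -1.20 (adjusted p = 0.000203) and -1.37 (adjusted p = 5.20e-05), each with an SE of 0.16.

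Its relatives moved less. TBL23 (AT4G11090) fell in arsenic roots (-0.54, SE 0.16, adjusted p = 0.0330), with changes of -0.20 and -0.31 in hypoxia and combination roots that did not pass (adjusted p = 0.388 and 0.177), and the arsenic call was lost without any one of control 2, control 3, arsenic 1 and arsenic 2 (adjusted p = 0.104 to 0.111). TBL24 (AT4G23790) had -0.47, -0.44 and -0.59 in arsenic, hypoxia and combination roots, of which the last passed (SE 0.16, adjusted p = 0.0140; 0.0538 without combination 1). The arsenic change (adjusted p = 0.0577) passed in 6 of 20 alternatives and the hypoxia change (adjusted p = 0.0611) in 2. TBL26 was dim, from 2.96 to 3.53, and did not pass against control; with arrays centred on their medians it rose in hypoxia roots (0.47, adjusted p = 0.0287).

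CSLA03 (AT1G23480), a mannan synthase of the CSLA family, read 6.97, 6.77 and 6.35 in control, 6.17, 5.86 and 5.75 in arsenic, 6.52, 5.60 and 5.33 in hypoxia, and 5.90, 4.98 and 4.58 in combination roots. Replicate 1 was the highest array in every group, and hypoxia 1 was above the lowest control array. It fell in combination roots (-1.54, SE 0.34, adjusted p = 0.00463). The arsenic change of -0.77 did not pass (adjusted p = 0.150), although all arsenic arrays were below control arrays, and it passed under array weights (0.0201) and in a fit of these groups alone (0.0245). The hypoxia change of -0.88 did not pass (adjusted p = 0.0806) but did under array weights (0.0356) and without hypoxia 1 (-1.23, adjusted p = 0.0172) or combination 1 (0.0406). CSLA01 was dim, between 1.61 and 2.08, and did not pass.

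Xyloglucan coats cellulose in primary walls, and its glucan backbone is made by the 5 CSLC proteins, all of which were measured. In arsenic roots 1 rose, where 8.34% of all genes rose. In hypoxia roots 3 fell and in combination roots 2 fell, where 13.7% and 14.6% of all genes fell. CSLC12 (AT4G07960) was the member that rose. It read 4.20, 4.67 and 4.24 in control, 4.62, 5.02 and 5.14 in arsenic, 3.69, 3.46 and 3.33 in hypoxia, and 3.37, 3.23 and 3.37 in combination roots.

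Arsenic arrays of CSLC12 overlapped the control arrays, and both groups in hypoxic medium were below them. The rise in arsenic roots was 0.56 (SE 0.18, adjusted p = 0.0478), and it was lost under 9 of the 12 single-array omissions (adjusted p = 0.0503 to 0.180). The falls were firmer, at -0.88 in hypoxia roots (adjusted p = 0.00328) and -1.05 in combination roots (adjusted p = 0.000748). From arsenic to combination roots the gene fell by 1.61 on the log2 scale (adjusted p = 0.000111), a 3.04-fold lower signal.

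CSLC6 (AT3G07330) read 7.86, 8.05 and 8.01 in control, 7.77, 7.84 and 7.84 in arsenic, 7.26, 7.04 and 7.40 in hypoxia, and 7.33, 7.51 and 7.48 in combination roots. Hypoxic medium separated its arrays, with and without arsenate. It fell in hypoxia roots (-0.74, SE 0.13, adjusted p = 0.00173) and combination roots (-0.53, adjusted p = 0.0103), and its arsenic change was -0.16 (adjusted p = 0.502).

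ATCSLC08 (AT2G24630) read 5.66, 5.89 and 5.64 in control, 5.36, 5.47 and 5.31 in arsenic, 4.58, 4.57 and 5.47 in hypoxia, and 5.19, 5.12 and 5.19 in combination roots. Hypoxia 3 was far above the other hypoxia arrays. The gene fell in hypoxia roots (-0.86, SE 0.21, adjusted p = 0.0102), and the combination change of -0.57 did not pass (adjusted p = 0.0627). It passed in 4 alternatives, namely without hypoxia 3 (adjusted p = 0.00613), under array weights (0.0126), in a fit of the compared groups alone (0.0155) and without dim genes (0.0433). CSLC5 (AT4G31590) was spread widely in hypoxia roots, with 5.86, 6.45 and 7.26 against 6.97, 7.26 and 6.90 in control roots. Its hypoxia change was -0.52 (adjusted p = 0.192). Over the alternatives it ran from -0.89 (adjusted p = 0.0126, without hypoxia 3) to -0.19, with adjusted p up to 0.599, and it passed in that 1 alone.

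CSLC04 (AT3G28180) was the member whose values went the other way under hypoxia. It read 8.57, 8.06 and 7.99 in control, 7.72, 7.33 and 7.34 in arsenic, 9.75, 8.25 and 8.14 in hypoxia, and 9.63, 8.33 and 8.30 in combination roots. All arsenic arrays were below control arrays and all combination arrays above arsenic arrays, with replicate 1 far above the others in both hypoxic groups. No change passed. The arsenic change of -0.75 (adjusted p = 0.264) passed in a fit of these groups alone (0.0282). The difference between combination and arsenic roots was 1.29 (SE 0.42, adjusted p = 0.0643) and passed in 7 of 20 alternatives, among them centred arrays (1.39, adjusted p = 0.0464), array weights (1.13, adjusted p = 0.0194), the groups alone (0.0386) and the omission of hypoxia 1 (0.0153).

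**Figure D3:**
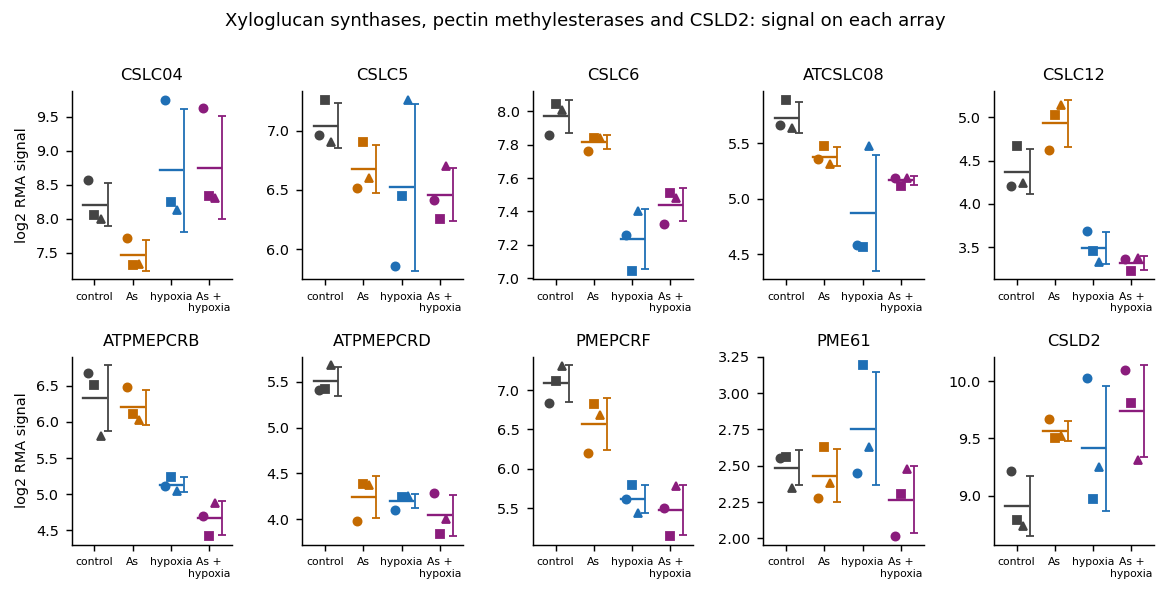
Log2 signal of the CSLC genes, the pectin methylesterase genes and CSLD2 by group, 1 panel per gene. Markers are single arrays (circle, square and triangle for replicates 1, 2 and 3) and bars are the mean and SD of 3 arrays; CSLC12 is lowest in the hypoxia and combination groups, CSLC04 has 1 high array in each of them, and ATPMEPCRB, ATPMEPCRD and PMEPCRF are lower in both than in control.

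Of 5 pectin genes 2 fell in arsenic, 3 in hypoxia and 4 in combination roots, against 9.58%, 13.7% and 14.6% of all genes. Besides TBL38 the pectin genes are 4 pectin methylesterases by name. ATPMEPCRB (AT4G02330) read 6.67, 6.51 and 5.81 in control, 6.48, 6.11 and 6.02 in arsenic, 5.12, 5.24 and 5.04 in hypoxia, and 4.70, 4.42 and 4.88 in combination roots. Arsenic arrays lay within the control range, and the combination arrays were below the hypoxia arrays. Its changes were -0.13 (adjusted p = 0.768), -1.19 (adjusted p = 0.00166) and -1.66 (adjusted p = 0.000110), each with an SE of 0.22.

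PMEPCRF (AT5G53370) read 6.84, 7.12 and 7.30 in control, 6.20, 6.83 and 6.68 in arsenic, 5.62, 5.80 and 5.43 in hypoxia, and 5.51, 5.15 and 5.79 in combination roots. The arrays in hypoxic medium were below all others, and the hypoxia and combination arrays overlapped. Changes were -0.52 (adjusted p = 0.115), -1.47 (adjusted p = 0.000287) and -1.61 (adjusted p = 0.000105), each with an SE of 0.21.

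ATPMEPCRD (AT2G43050) differed in falling to the same level under each treatment. It read 5.41, 5.42 and 5.68 in control, 3.98, 4.38 and 4.37 in arsenic, 4.11, 4.24 and 4.25 in hypoxia, and 4.29, 3.84 and 4.00 in combination roots. The treated arrays were all below control arrays and overlapped each other. Changes were -1.26 (adjusted p = 0.000220), -1.31 (adjusted p = 0.000111) and -1.46 (adjusted p = 3.07e-05), each with an SE of 0.16. PME61 was dim, between 2.02 and 3.19, and did not pass.

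TBL38 (AT1G29050) is a TBL protein for which an acetylesterase activity on pectin has been described. It read 8.19, 8.16 and 8.43 in control, 7.58, 7.44 and 7.55 in arsenic, 7.60, 7.56 and 8.29 in hypoxia, and 7.37, 7.67 and 7.25 in combination roots. Among the treated arrays hypoxia 3 alone reached the control range. TBL38 fell in arsenic roots (-0.74, SE 0.20, adjusted p = 0.0199) and combination roots (-0.83, adjusted p = 0.00678). The arsenic call was lost without control 3, arsenic 2 or arsenic 3 (adjusted p = 0.0561 to 0.0789). In hypoxia roots the change was -0.44 (adjusted p = 0.118), and it was -0.68 (adjusted p = 0.0123) without hypoxia 3.

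The other 12 TBL genes are given here without a substrate. In arsenic roots 2 fell, in hypoxia roots 4 and in combination roots 5, against 9.58%, 13.7% and 14.6% of all genes. The arsenic count was only a little above that share. These genes included the largest fall of the family. TBL37 (AT2G34070) read 6.77, 6.83 and 6.98 in control, 5.17, 5.52 and 5.33 in arsenic, 5.19, 4.75 and 4.30 in hypoxia, and 4.45, 4.66 and 3.91 in combination roots. All treated arrays were far below the control arrays, with overlap between hypoxia and combination. The changes were -1.52 (adjusted p = 0.000666), -2.11 (adjusted p = 4.15e-05) and -2.52 (adjusted p = 6.31e-06), each with an SE of 0.23, and the last is a 5.75-fold lower signal.

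TBL19 (AT5G15900) read 5.49, 5.61 and 5.92 in control, 4.83, 5.06 and 5.06 in arsenic, 3.67, 4.08 and 3.87 in hypoxia, and 2.79, 3.63 and 3.17 in combination roots. Its groups stepped down in that order with no overlap. The arsenic change of -0.69 (SE 0.20, adjusted p = 0.0349) was lost without control 2, control 3 or any 1 arsenic array (adjusted p = 0.0622 to 0.132). The hypoxia change of -1.80 (adjusted p = 5.79e-05) and the combination change of -2.48 (adjusted p = 2.87e-06) passed under every alternative that tested the gene.

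TBL39 (AT2G42570) read 7.61, 7.87 and 7.86 in control, 7.15, 6.59 and 6.90 in arsenic, 5.67, 6.56 and 5.90 in hypoxia, and 5.23, 5.86 and 6.50 in combination roots. Treated arrays were all below control arrays, and hypoxia and combination overlapped. The change was -0.90 in arsenic roots (adjusted p = 0.0533), -1.74 in hypoxia roots (adjusted p = 0.00109) and -1.92 in combination roots (adjusted p = 0.000385), each with an SE of 0.30. The arsenic change passed in 10 of 20 alternatives (lowest adjusted p = 0.00471, under array weights, and highest 0.165).

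TBL16 (AT5G20680) read 8.15, 8.38 and 8.38 in control, 8.09, 8.41 and 8.22 in arsenic, 7.72, 7.85 and 7.67 in hypoxia, and 7.86, 7.99 and 7.87 in combination roots. Arrays in hypoxic medium were below all others. The hypoxia change was -0.56 (SE 0.14, adjusted p = 0.0101) and the combination change -0.39 (adjusted p = 0.0468). With arrays centred on their medians neither passed (adjusted p = 0.0551 and 0.137), and the combination call was lost under 8 single-array omissions (adjusted p = 0.0524 to 0.145).

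TBL41 (AT3G14850) fell in combination roots (-1.54, SE 0.35, adjusted p = 0.00517), from 4.09, 4.86 and 5.32 in control roots to 3.40, 2.59 and 3.67. Control 1 lay well below the other control arrays. Without it the arsenic change of -0.85 (adjusted p = 0.114) and the hypoxia change of -0.87 (adjusted p = 0.0860) became -1.19 (adjusted p = 0.0393) and -1.20 (adjusted p = 0.0283). Under other alternatives they shrank to as little as -0.57 and -0.56, with adjusted p up to 0.353 and 0.273, and each passed in 2 of 19.

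The remaining 7 members (TBL15, TBL18, TBL20, TBL36, TBL42, TBL43 and TBL45) passed in no comparison as fitted over all arrays. TBL45 changed by -0.48 in combination roots (adjusted p = 0.0621), which passed in 6 of 19 alternatives (lowest adjusted p = 0.0134, under array weights), and by -0.38 in hypoxia roots (adjusted p = 0.142; 0.0323 without hypoxia 1). TBL36 changed by -0.57 in combination roots (adjusted p = 0.249), which passed in 2 of 20 (0.0383 for the groups alone and 0.0449 without hypoxia 1). TBL18 varied little, from 7.17 to 7.60 over the 12 arrays, and its changes against control were 0.08, 0.11 and -0.13. TBL36 was spread widely in hypoxia roots, at 7.41, 8.62 and 9.32. TBL20 was dim, from 2.28 to 3.18, and rose in hypoxia roots with arrays centred on their medians (0.66, adjusted p = 0.0305), whereas the change without centring was 0.48 (adjusted p = 0.0825).

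Of the last 3 genes of the 41, 2 are members of the CSL family. CSLD2 (AT5G16910), needed for normal root hair growth, read 9.21, 8.79 and 8.74 in control, 9.67, 9.50 and 9.52 in arsenic, 10.02, 8.97 and 9.25 in hypoxia, and 10.10, 9.81 and 9.31 in combination roots. Arsenic and combination arrays were above control arrays, and hypoxia arrays overlapped them. The rise passed in combination roots (0.83, SE 0.26, adjusted p = 0.0318) but not without control 2, control 3, combination 1 or combination 2 (adjusted p = 0.0891 to 0.120). In arsenic roots the change of 0.65 did not pass (adjusted p = 0.110). It passed in 4 of 20 alternatives (lowest adjusted p = 0.0174, under array weights, and highest 0.263). CSLB03 was dim and rose in hypoxia roots (0.95, SE 0.29, adjusted p = 0.0316), a call lost without any 1 control array, hypoxia 1 or hypoxia 3 (adjusted p = 0.0606 to 0.0978).

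PMEAMT (AT1G48600), the methyltransferase of phospholipid synthesis, read 10.56, 10.48 and 10.45 in control, 9.71, 9.87 and 9.67 in arsenic, 9.32, 9.79 and 9.97 in hypoxia, and 9.07, 8.51 and 8.90 in combination roots. Combination arrays were below those of both single treatments. Changes were -0.74 (adjusted p = 0.0147), -0.80 (adjusted p = 0.00741) and -1.67 (adjusted p = 3.00e-05), each with an SE of 0.19. The arsenic call was lost without arsenic 3 (adjusted p = 0.0571).

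The design also shows what hypoxic medium did in the presence of arsenate. The group means compared here come from arrays other than those of hypoxia and control roots. All 12 arrays share 1 estimate of each gene's spread, however, so calls in different comparisons are not independent. Against arsenic roots, 11 of the 41 wall genes fell in combination roots (26.8%) and none rose, where 6.67% of all genes fell and 5.33% rose. All 11 were among the 18 that fell in hypoxia roots (61.1% of the 18 and 100% of the 11). Over all genes 753 fell in both comparisons, 33.2% of the falls under hypoxia and 68.2% of those under combination against arsenic. Changes had the same sign for 36 of 41 wall genes (87.8%) and for 69.1% of all genes, and the Pearson correlation of the changes across the 41 genes was 0.773 (Spearman 0.818) and across all 16550 genes 0.636 (Spearman 0.507), given as a description over genes that share arrays.

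The falls from arsenic to combination roots were -1.79 for TBL19 (adjusted p = 0.000145), -1.61 for CSLC12, -1.53 for ATPMEPCRB (adjusted p = 0.000602), -1.09 for PMEPCRF (adjusted p = 0.00461), -1.07 for IRX15-L (adjusted p = 0.000652), -0.95 for TBL34 (adjusted p = 0.00698) and -0.92 for PMEAMT (adjusted p = 0.00589). These 7 passed in every alternative that tested them. Calls for the other 4 were less firm. TBL37 (-1.0027, adjusted p = 0.0135) was lost without arsenic 2 (0.0537). TBL33 (-0.85, adjusted p = 0.0215) was lost without arsenic 2, arsenic 3, combination 2 or combination 3 (0.0559 to 0.0877). TBL39 (-1.02, adjusted p = 0.0433) and TBL32 (-0.44, adjusted p = 0.0472) were lost with arrays centred on their medians (0.0574 and 0.134) and under 9 and 11 of the 12 single-array omissions (0.0509 to 0.157 and 0.0518 to 0.137). With that centring 9 wall genes fell and 1, CSLC04, rose, while all genes went from 882 rises and 1104 falls to 1296 and 871.

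Adding arsenate to hypoxic medium changed fewer wall genes. Against hypoxia roots 3 fell in combination roots (7.32%) and none rose, where 1.58% of all genes fell and 1.88% rose. They were TBL33 (-0.95, adjusted p = 0.0332), TBL34 (-0.90, adjusted p = 0.0292) and PMEAMT (-0.87, adjusted p = 0.0265). All 3 were among the 11 that fell from control to arsenic roots (27.3% of the 11 and 100% of the 3), and over all genes the shares were 9.21% and 55.7%. None of the 3 calls held without hypoxia 2 (adjusted p = 0.0874 to 0.119), hypoxia 3 (0.0670 to 0.0796) or combination 2 (0.118 to 0.140), and TBL33 and PMEAMT also failed without combination 3 (0.122 and 0.0729) and TBL33 without control 2 or arsenic 3 (0.0547 and 0.0523). In a fit of these groups alone all 3 failed (0.0831 to 0.156).

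**Figure D4:**
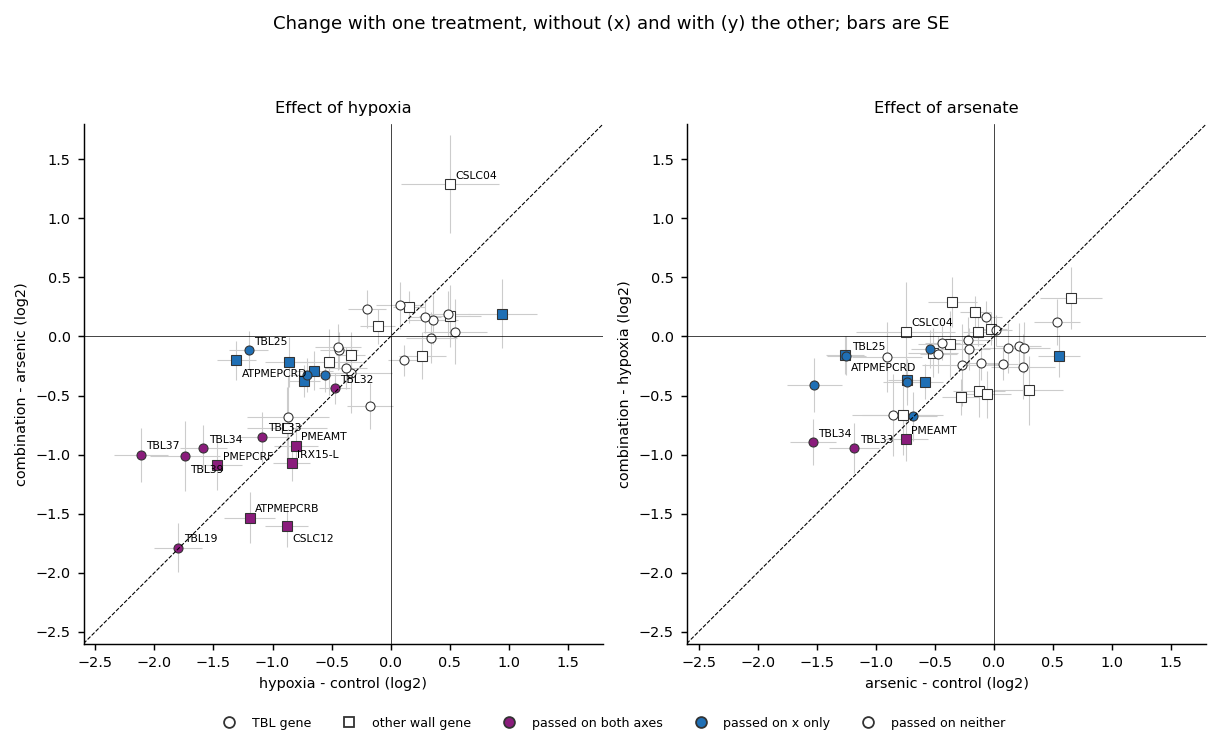
Change (log2) of the 41 wall genes with 1 treatment in the absence (x axis) and presence (y axis) of the other, for hypoxia (left) and arsenate (right). Circles are TBL genes, squares other wall genes, bars SE, colours show on which axes a gene passed, and the dashed line marks equal change; points under the line have a lower change with the other treatment present, and TBL25 and ATPMEPCRD lie near 0 on the y axis in both panels.

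The interaction asks whether the combination differs from the sum of both single changes. It was positive for 2 wall genes and negative for none, where 1.34% of all genes had a positive and 1.43% a negative interaction. They were TBL25 (1.09, SE 0.23, adjusted p = 0.0264) and ATPMEPCRD (1.1025, SE 0.23, adjusted p = 0.0250). For TBL25, hypoxia changed the signal by -1.20 in control medium and by -0.12 in the presence of arsenate, with a 95% interval of -0.47 to 0.24. For ATPMEPCRD the same values were -1.31 and -0.20. Without control 2, control 3 or arsenic 1 neither passed (adjusted p = 0.0580 to 0.0790), and TBL25 was lost also without hypoxia 2 (0.0513) and ATPMEPCRD without combination 3 (0.0503).

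For TBL19 the interaction was 0.01 with a 95% interval of -0.62 to 0.64, and for TBL33 0.24 with an interval of -0.42 to 0.89. These intervals are wide beside the arsenic changes of -0.69 and -1.18. Additive changes therefore cannot be told from a partly lost effect in these 2 genes. TBL37 had an interaction of 1.11 (SE 0.33) that did not pass (adjusted p = 0.0982), but did without hypoxia 1 (adjusted p = 0.0360). CSLC12 had one of -0.72 (SE 0.25, adjusted p = 0.161).

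Few other wall genes could be set beside these. The array annotation did not list 20927 of the 38408 rows, so a gene outside the 16550 was not analysed here, whether or not the array holds it. Of 20 further acetylation genes none was among the 16550, and of 39 genes of nucleotide sugar supply 2 were. Both fell in hypoxia and combination roots, with changes of -1.26 (adjusted p = 0.000148) and -0.84 for USP, a sugar nucleotide pyrophosphorylase, and of -0.56 (adjusted p = 0.0279) and -0.88 for GER2, of the GDP-fucose pathway. Of 28 genes of backbones and side chains 1 was among them, COB, a protein that orients cellulose in growing root cells. It fell in hypoxia roots (-0.69, adjusted p = 0.00258) and in combination roots (-0.47, adjusted p = 0.0203).

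Of 60 genes of wall remodelling 16 were analysed. In arsenic roots 1 rose and 2 fell (6.25% and 12.5%), near the 8.34% and 9.58% of all genes. The 2 that fell were EXPA7 and EXPA18, which are also root hair markers. In hypoxia roots 2 rose and 5 fell (12.5% and 31.2%), against 10.8% and 13.7% of all genes. In combination roots 2 rose and 7 fell (12.5% and 43.8%), against 13.0% and 14.6%. Expansins, which loosen walls, moved in both directions. EXPA15 changed by -2.35 in hypoxia roots (adjusted p = 1.26e-05) and EXPA20 by 1.41 (adjusted p = 0.000186).

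The few measured markers of root hairs fell, as many but not all wall genes did. Of 12 such markers 3 were analysed, EXPA7, EXPA18 and XTH26, and all 3 fell in each comparison with control, with median changes of -1.21, -2.13 and -2.88 in arsenic, hypoxia and combination roots. Their summed signal on the linear scale was 383.6 to 502.4 in control arrays, 186.8 to 201.1 in arsenic arrays, 62.1 to 136.3 in hypoxia arrays and 44.2 to 80.2 in combination arrays. Their part in the falls of the wall genes was not tested. EXPA7 and EXPA18 were also counted among the 16 remodelling genes. CSLD2, needed for root hair growth, went the other way and rose in combination roots (0.83, adjusted p = 0.0318), a call lost in 4 of 20 alternatives. Of 13 markers of xylem and fibre walls, 8 of endodermis and 5 of root cap none was among the 16550 genes, so the xylan genes are not set beside markers of the cells that make secondary walls. Of 8 pollen markers 3 were analysed, and all were dim, with means of 2.45 to 3.02.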

How the data were processed

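Total RNA from roots was hybridised to 12 Affymetrix arrays. The authors deposited 1 log2 value for each probe set and array, computed by RMA per the submitters' processing notes. Those notes also list Transcriptome Analysis Console 3.1 and Expression Console (1.4, 1.4.1). The table held 38408 rows, of which 16722 named 1 gene in the array annotation. The brightest row was kept for 146 genes with several, leaving 16550 genes, 16411 of them matched to RefSeq (TAIR10.1), used for names and neighbours alone since the array's genome build was not given in the sources used here. Each of the 41 wall genes had 1 row.

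All arrays were fitted together in limma 3.58.1 (R 4.3.3; lmFit and eBayes, 8 residual degrees of freedom). Tests were two-sided for 5 pairs of groups and the interaction, and a gene passed at an adjusted p under 0.05 (Benjamini-Hochberg, all genes, separately for each comparison). In simulated data for hypoxia against control, 200 of 16550 genes were changed. Of 50 genes planted at each of 1.5, 2, 4 and 8-fold, 9, 31, 49 and 50 were recovered, and 6 of 16350 unchanged genes were called. In the real comparison 1791 genes rose and 2269 fell, so its cut-off on the unadjusted p was looser and these shares do not carry over. Modest changes can still be missed with 3 arrays per group. Replicate numbers were not taken as pairs in the main fit, since the submitters call the replicates independent. The arrays do not settle this, as deviations from the group mean correlated over 0.1 in 6 of 18 same-number pairs. Calls under a replicate block are given in the last section. Alternatives were centring on array medians, another quantile normalization, no dim genes, the mean of a gene's rows, trend and robust fits, array weights, fits of the compared groups alone, a replicate block, and leaving out each array.

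The members and lists were chosen with earlier results of these data known, and the grouping by polysaccharide was made with the values in view. Full values were given for TBL genes that passed in at least 2 of 3 comparisons with control and for up to 3 members of each role with the largest changes and no overlap between groups. Other members named with values were added after their values were seen.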

Additional observations from a re-analysis of the deposited data

Results flagged for a closer look

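As fitted over all arrays, the interaction test of limma across all 16550 genes passed for 2 wall genes. TBL25, of mannan acetylation, had an interaction of 1.0852 (adjusted p = 0.0264), and the pectin methylesterase gene ATPMEPCRD one of 1.1025 (adjusted p = 0.0250). For each gene the call was lost under 4 omissions of a single array, with adjusted p up to 0.0790 for TBL25 and 0.0688 for ATPMEPCRD. In both, hypoxia changed the signal less with arsenate present than without it, and the treated groups overlapped each other below control.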

How the results depend on the processing

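No call of a wall gene reversed its direction under the alternatives, of which 18 to 20 tested a gene in a given comparison (dim genes were left out of 1, and the interaction has no fit of 2 groups alone). Calls that passed in all that tested them were 6 of 12 in arsenic, 15 of 19 in hypoxia and 18 of 23 in combination roots against control, 7 of 11 for combination against arsenic, 0 of 3 for combination against hypoxia and 0 of 2 for the interaction. With each array left out in turn, the calls numbered 7 to 15 (arsenic), 7 to 11 (combination against arsenic), 0 to 3 (combination against hypoxia) and 0 to 3 (interaction), and among TBL genes 4 to 9, 2 to 6, 0 to 2 and 0 to 2. Array weights gave 19 calls in arsenic roots (3 rose, 16 fell), 12 of them TBL genes, and 2 TBL interactions. Fits of the compared groups alone left 0 wall genes and 0 TBL genes for combination against hypoxia, and leaving out dim genes left 1 interaction, as ATPMEPCRD was not tested. The causes of the other shifts were not tested. Whether replicate numbers pair the arrays was not settled. Deviations from the group mean correlated at -0.079 to 0.305 for arrays of the same number and at -0.331 to 0.162 for the others. Every pair of replicate 1 arrays correlated positively (0.067 to 0.305), and 6 of 12 arrays were most like another of their own number. A replicate block gave 16, 21, 23, 12, 3 and 2 calls for the 6 comparisons in the order above, and 9, 10, 12, 5, 2 and 1 among TBL genes. Under the block TBL32 lost its combination call (adjusted p = 0.0504), CSLA03 passed in arsenic and hypoxia roots and against arsenic (0.0162, 0.00630 and 0.0216), and CSLC04 in arsenic roots and against arsenic (0.0454 and 0.00370). With centred arrays the split of all genes moved from 311 rises and 262 falls to 187 and 311 for combination against hypoxia, and from 221 positive and 236 negative interactions to 152 and 262. Dim probe sets limit what can be seen, since 15 of the 41 wall genes had means below 4.87.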
